A study of Populus trichocarpa with 15 samples.

Results

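Chromosomes 8 and 10 of *Populus trichocarpa* (black cottonwood), named Chr08 and Chr10 in the deposited lists, held 7242 of the 55335 open chromatin regions found in 14 leaf libraries, or 13.1%. Of these regions 3450 lay on Chr08 (6.23% of all) and 3792 on Chr10 (6.85%). Members were all ATAC-seq peaks of the 14 lists that lay on either chromosome, merged where they overlapped or touched, which joined 51769 peaks. A further 47956 regions lay on the other 17 assembled chromosomes (86.7%) and 137 on scaffolds or the chloroplast genome. The libraries came from flash-frozen leaves of single branches of wild Oregon trees, 5 of tree 13, 5 of tree 14 and 4 of tree 4, with no treatment. Trees 13 and 14 are stems that belong to 1 individual, whereas tree 4 is a second individual, so every tree comparison below is between these trees only and its p-values describe the spread between their branches. The labels state leaf as the tissue, which could not be checked against marker genes because the lists hold no gene values. The lists held from 12801 to 39694 peaks, a 3.10-fold range, and their read depth is unknown.

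In ATAC-seq a transposase inserts sequencing adapters into DNA that is not packed against it, so a peak marks accessible chromatin such as an active promoter or enhancer. Poplars and willows share an ancient whole-genome duplication, called Salicoid, after which most stretches of the genome kept a partner elsewhere. Chr08 and Chr10 are a partner pair with long runs of genes in matching order, and duplicated genes in such runs can keep, divide or lose their regulatory sequence.

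The first comparison asked how densely the duplicated pair was filled with open regions. Chr08 had 170.6 regions per Mb and Chr10 had 167 regions per Mb, against 138 regions per Mb on the other chromosomes pooled. Single other chromosomes had 90.3 to 192 regions per Mb, and the pair took places 3 and 4 of the 19 chromosomes, behind Chr09 and Chr02. Lengths were taken to the end of the last region, 20.2 Mb for Chr08 and 22.7 Mb for Chr10. Regions covered 5.20% of Chr08 and 5.05% of Chr10, against 4.11% of the other chromosomes. The median distance from a region to the next was 2718 bp on Chr08 and 2844 bp on Chr10, against 3314 bp on the others.

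The same order was seen within single libraries, where peaks were counted per Mb before any merging. Chr08 had from 46.4 (branch 13.5) to 123.3 (branch 14.3) peaks per Mb, with a mean of 87.9 ± 21.3 (SD, n = 14). Chr10 had from 41.3 (branch 13.5) to 120.7 (branch 14.3), with a mean of 84.7 ± 21.0. The other chromosomes had a mean of 68.2 ± 17.7 peaks per Mb. Within each library the pair was denser than the others, by 12.4 to 24.1 peaks per Mb and by 18.0 ± 3.62 on average (higher in 14 of 14 libraries, two-sided exact sign-flip permutation test, p = 0.000122, the smallest that 14 libraries allow, adjusted p = 0.000732). The ratio of the pair to the others was 1.27 ± 0.0410 and lay between 1.23 and 1.40. Peaks covered 2.19 ± 0.525% of the pair and 1.73 ± 0.430% of the others (difference 0.461 ± 0.103 percentage points, two-sided exact permutation test, higher in 14 of 14 libraries, p = 0.000122, adjusted p = 0.000732). The pair is 2 chromosomes and the 14 libraries, which share them, are branches of 2 individuals. These tests show that a difference recurs over these libraries and not that duplicated chromosomes are denser in general.

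**Figure D1:**
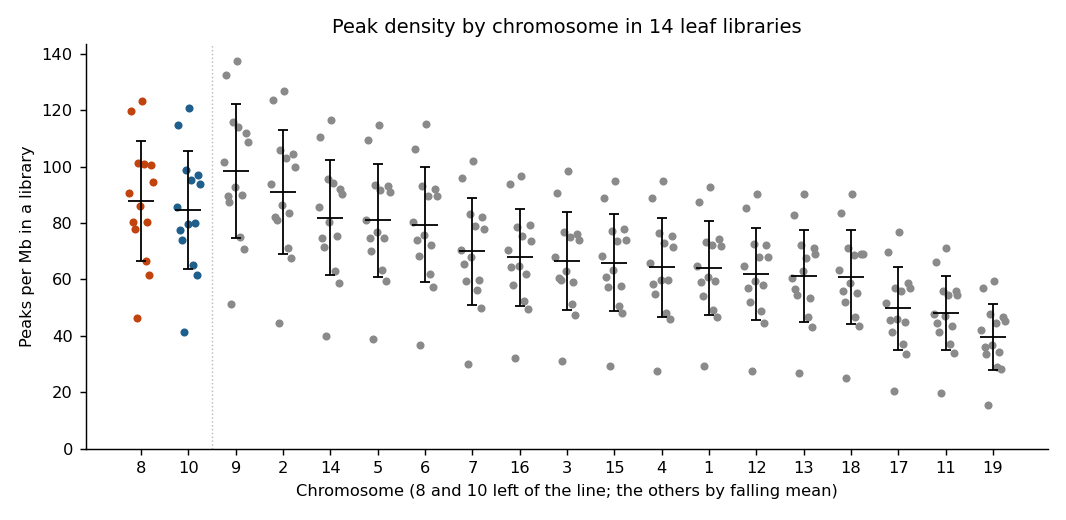
Peaks per Mb on each of the 19 chromosomes, with a point for each of the 14 libraries and a bar with whiskers for their mean ± SD. Chr08 (mean 87.9) and Chr10 (84.7) stand left of the line, and of the other 17, ordered by falling mean, only Chr09 and Chr02 had higher means.

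Between the partners the difference over whole chromosomes was small but recurred in most libraries. Chr08 exceeded Chr10 by 3.22 ± 2.06 peaks per Mb (higher in 13 of 14 libraries, range -0.0527 to 6.54, exact sign-flip permutation test, p = 0.000244, adjusted p = 0.000977). Branch 4.3 was the exception, with 61.57 peaks per Mb on Chr08 and 61.63 on Chr10. The difference was 4.02 ± 1.62 in trees 13 and 14 (n = 10) and 1.21 ± 1.74 in tree 4 (n = 4). In tree 4 it was 0.221 in branch 4.2, 3.75 in branch 4.4 and 0.937 in branch 4.5. The p-value describes these branches of 2 individuals only. Peaks covered 2.22 ± 0.529% of Chr08 and 2.16 ± 0.522% of Chr10, a difference of 0.0513 ± 0.0415 percentage points (two-sided exact permutation test, higher in 12 of 14 libraries, p = 0.00110, adjusted p = 0.00330). The covered share did not keep this order among strong peaks: with peaks of −log10 q of at least 10 alone, Chr08 minus Chr10 was -0.0146 percentage points (exact permutation test, adjusted p = 0.0155, in a range of 0.000366 to 0.867 over 20 alternatives).

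Along the chromosomes the regions were arranged as near mirror images. On Chr08 the dense part began at the low-coordinate end and on Chr10 at the high-coordinate end. Over 20 bins of relative length the correlation of region counts was -0.619 with both chromosomes read in the same direction (Spearman's rho = -0.599) and 0.955 with Chr10 turned round (rho = 0.863). These bins share libraries and are not replicates, so the values describe the profiles and carry no p. In single libraries the turned profile gave 0.893 to 0.955, with a median of 0.926. The value was 0.943 for covered base pairs and 0.838 for regions called in all 14 libraries.

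The turned Chr08 and Chr10 profiles were the most alike of 171 pairs of chromosomes at 20 bins and at 40 bins, each pair read in its better direction, and took place 2 at 10 bins. Other pairs came close. At 20 bins the correlation was 0.941 for Chr10 with Chr14, 0.933 for Chr08 with Chr09 and 0.926 for Chr08 with Chr14. For Chr08 with Chr14 it was 0.907 at 40 bins, against 0.909 for Chr08 with Chr10. At 10 bins Chr08 with Chr14 took place 1, at 0.97915 against 0.97864. The likeness was weaker within the dense part. With distance counted in Mb from the dense end, the correlation was 0.931 over 20 windows of 1 Mb, 0.844 over the first 15 and 0.346 over the first 11 (rho = 0.137), in which Chr08 had 211 to 268 regions per window and Chr10 had 195 to 255.

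**Figure D2:**
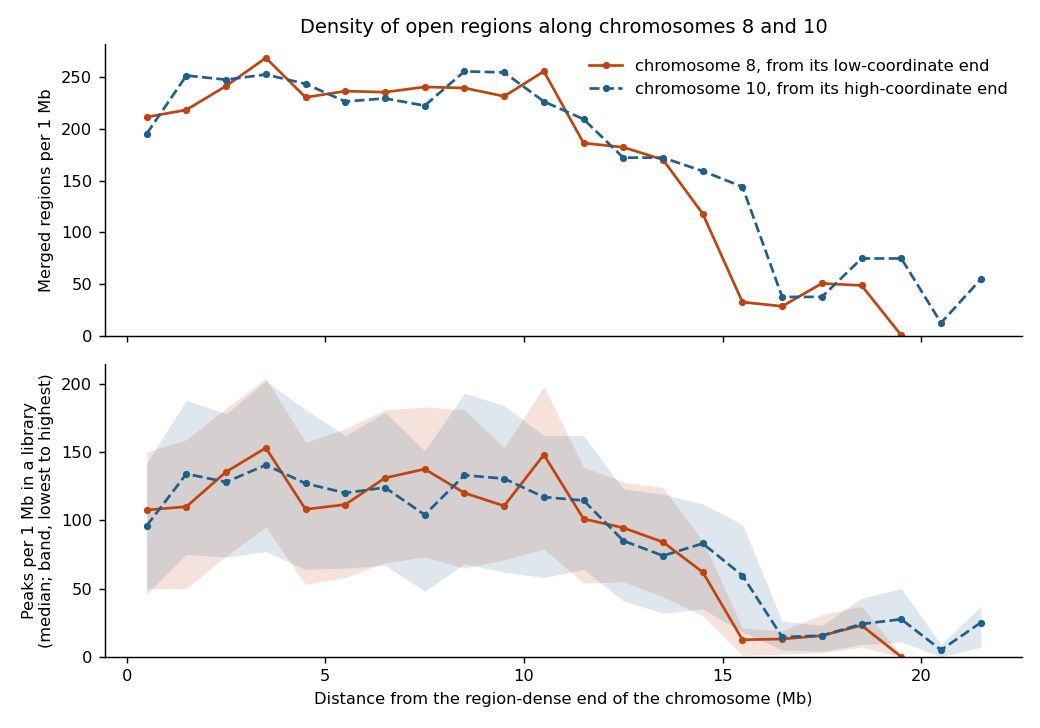
Merged regions per 1 Mb window (top) and peaks per window in single libraries (bottom, median as a line, lowest to highest of 14 libraries as a band) along Chr08 and Chr10, with distance in Mb from the region-dense end, which is the low-coordinate end of Chr08 and the high-coordinate end of Chr10. Windows of the first 11 Mb held 211 to 268 regions on Chr08 and 195 to 255 on Chr10, and counts on both chromosomes then fell to sparse windows.

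Single windows differed widely within each chromosome. Of 20 whole windows, Chr08 had a median of 214.5 regions, with the densest at 3 to 4 Mb (268 regions) and the emptiest at 19 to 20 Mb (1 region). Of 22 whole windows, Chr10 had a median of 195 regions, with the densest at 18 to 19 Mb (266) and the emptiest at 5 to 6 Mb (23). Fewer than 80 regions were found in 5 windows of Chr08 (25%) and in 7 windows of Chr10 (31.8%). On single other chromosomes this share lay between 6.67% (Chr07) and 46.7% (Chr19). The longest stretch without a region ran from 19059881 to 20023469 on Chr08 (964 kb) and from 1436807 to 2214417 on Chr10 (778 kb). A second stretch of 678 kb lay on Chr10 between 269690 and 947844.

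Boundaries at 15 Mb on Chr08 and 7 Mb on Chr10 were set after the profiles had been seen, so the stretches on either side are described without a test. The dense stretches were almost equal, with 217.3 regions per Mb over 15 Mb of Chr08 and 217.9 regions per Mb over 15.7 Mb of Chr10. The sparse stretches were not. The sparse 5.22 Mb of Chr08, 25.8% of its length, held 190 regions (36.4 per Mb), and the sparse 7 Mb of Chr10, 30.9% of its length, held 374 regions (53.4 per Mb). The dense stretch was thus 5.97 times as dense as the sparse one on Chr08 and 4.08 times on Chr10. In single libraries the dense stretches differed by 0.934 ± 2.40 peaks per Mb, Chr08 minus Chr10, with 8 of 14 libraries above 0. The sparse stretches had 13.9 peaks per Mb on Chr08 and 21.9 on Chr10, and Chr08 was lower in 14 of 14 libraries, by -7.95 ± 2.57. The sparse stretch took 3.97% of the peaks of Chr08 and 7.86% of those of Chr10. The higher density of whole Chr08 thus had no firm counterpart in the dense stretches and was reversed in the sparse ones. Chr08 had the smaller share of its length in the sparse stretch, 25.8% against 30.9%, whose part in the excess was not tested.

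Regions of the sparse stretches were also called in fewer libraries. On Chr08, 10 of 190 sparse regions were called in all 14 libraries (5.26%, Wilson 95% interval 2.88 to 9.42%), against 20.8% of the dense ones. On Chr10 it was 45 of 374 (12.03%, interval 9.12 to 15.7%), against 20.04% of the dense ones. These intervals cover counting error only. Regions called in a single library made up 30.5% of the sparse stretch of Chr08, against 21.6% of its dense stretch. On Chr10 they made up 34.2% of the sparse stretch, against 21.9% of the dense one. Sparse regions were narrower, with medians of 200 bp against 260.5 bp on Chr08 and 220.5 bp against 260 bp on Chr10. The median score percentile of the peaks, their rank by significance within a list, differed by -7.53 ± 7.51 points on Chr08, sparse minus dense (lower in 11 of 14 libraries). On Chr10 the same difference was 1.08 ± 4.07 points (lower in 5 of 14).

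The next comparison asked how often regions of the pair recurred over the 14 libraries. All 14 libraries called 687 regions of Chr08 (19.9%, Wilson 95% interval 18.6 to 21.3%) and 730 regions of Chr10 (19.3%, 18.0 to 20.5%), against 17.3% (16.98 to 17.66%) on the other chromosomes and 17.6% of all regions. Single other chromosomes had 12.995 to 19.904%, so Chr08, at 19.913%, took place 1 of 19 by a narrow margin and Chr10 took place 4. Neighbouring regions and all 14 libraries are shared between these counts, so no test was made. The order of the partners was not firm, because the difference in this share, Chr08 minus Chr10, was -0.205 percentage points without branch 13.5, the shortest list. The excess of the pair over the others was not firm either. It was 0.265 percentage points with lists of equal length and 0.337 in the most significant 50% of each list. With a 50% overlap needed for a call the share was 8.17% on the pair and 8.07% on the others. The excess turned to -1.97 percentage points among regions made from peaks of −log10 q of at least 10. Over whole lists, regions called in all 14 libraries numbered 34.0 per Mb on Chr08 and 32.2 on Chr10, against 23.8 on the others.

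Regions seen in a single library numbered 762 on Chr08 (22.1%) and 878 on Chr10 (23.2%), against 24.2% on the others and 23.9% of all regions. The classes between differed little. Regions called in 2 to 9 libraries made up 39.8% of Chr08 and 39.4% of Chr10, against 39.5% of the others. Those called in 10 to 13 libraries made up 18.2% of each partner, against 19.02% of the others.

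Width followed the number of libraries in the same way on both partners. The median width on Chr08 was 120 bp for regions of 1 library, 227 bp for 2 to 9, 343 bp for 10 to 13 and 475 bp for all 14. On Chr10 these medians were 122, 228, 336 and 491.5 bp, and on the other chromosomes 121, 229, 342 and 483 bp. Merging peaks of many lists can only widen a region, and its part in this order was not tested. Over all members the median width was 257 bp on Chr08 and 253.5 bp on Chr10, against 252 bp on the others. Regions of at least 1000 bp numbered 20 on Chr08 (0.580%) and 18 on Chr10 (0.475%), against 0.772% on the others and 0.745% of all regions.

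**Figure D3:**
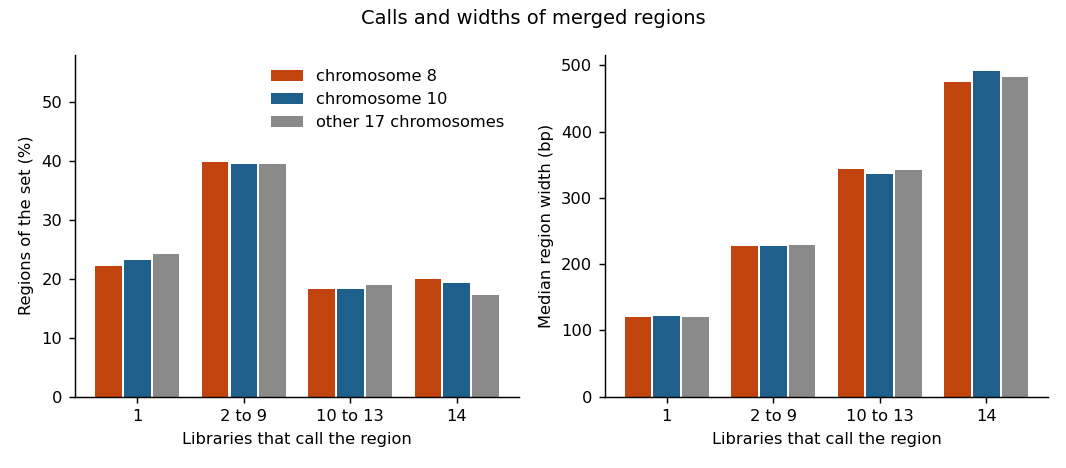
Left, the percent of regions called in 1, 2 to 9, 10 to 13 and all 14 libraries on Chr08, Chr10 and the other chromosomes. Right, the median region width in bp of each class, which was 120 bp on Chr08 and 122 bp on Chr10 for regions of 1 library and 475 and 491.5 bp for regions of all 14.

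Peak width before merging did not separate the partners over whole lists, but it did among strong peaks. Over whole lists the median width differed by -1 ± 4.27 bp, Chr08 minus Chr10 (exact sign-flip permutation test over 14 libraries, p = 0.482, adjusted p = 0.578). Peaks of −log10 q of at least 10 numbered 127 to 499 per library on Chr08 and 141 to 543 on Chr10. Their median width lay between 274 bp (branch 14.2) and 398 bp (branch 13.5) on Chr08, with a median over libraries of 311 bp. On Chr10 it lay between 282 bp (branch 14.2) and 449 bp (branch 13.5), with a median of 327.25 bp. Strong peaks were narrower on Chr08 by 6 to 51 bp, with a mean difference of -20.2 ± 12.7 bp (exact permutation test, lower in 14 of 14 libraries, p = 0.000122, adjusted p = 0.000488). Over the 20 alternatives the adjusted p of this difference lay between 0.000488 and 0.963, and it was -7.39 bp in the most significant 50% of each list and -6.07 bp in lists of equal length. Strong peaks of Chr08 were also narrower than those of the other chromosomes, by -18.4 ± 6.54 bp (lower in 14 of 14 libraries), and by -19.3 to -17.8 bp with any 1 library left out. For Chr10 this difference had no firm sign, at 1.75 ± 13.6 bp over 14 libraries (7 below 0 and 6 above) and -1.5 bp without branch 13.5, which stood at 44 bp. These strong peaks fell in 709 regions of Chr08 and 757 regions of Chr10.

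The place of the peaks in the significance order of a list did not separate the chromosomes over whole lists. The median score percentile differed by 0.117 ± 1.20 points between Chr08 and Chr10 (exact permutation test over 14 libraries, p = 0.715, adjusted p = 0.715) and by -0.335 ± 1.10 points between the pair and the others (p = 0.276, adjusted p = 0.413, exact permutation test). The second difference passed the threshold in 3 of 21 alternatives, with -3.80 points among peaks of −log10 q of at least 10, -1.71 points in the most significant 50% of each list and -1.13 points in lists of equal length. The median peak width of the pair differed from that of the others by 1 ± 1.92 bp (two-sided exact permutation test, higher in 10 of 14 libraries, p = 0.0986, adjusted p = 0.197). It passed the threshold in opposite directions in 2 alternatives, at 2.07 bp without the outer 5% of each chromosome (exact permutation test, adjusted p = 0.0105) and at -9.25 bp among strong peaks (exact permutation test, adjusted p = 0.000586), in a range of 0.000586 to 0.867 over 21 alternatives.

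On each partner the 3 regions of highest mean score percentile among those called in all 14 libraries are described, out of 687 on Chr08 and 730 on Chr10. On Chr08 the region from 2545346 to 2545919 (573 bp) had a −log10 q of 19.3 (branch 14.5) to 36.5 (branch 4.2), with a median of 26.3, and a mean score percentile of 99.7. The region from 2177637 to 2178459 (822 bp) had 15.5 to 29.0, with a median of 24.9. The region from 6772598 to 6773056 (458 bp) had 12.6 to 34.3, with a median of 22.2. All 3 lay in the dense stretch.

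On Chr10 the highest −log10 q of the named regions was found in a narrow region, from 8636704 to 8636948 (244 bp). It had 15.2 (branch 13.5) to 49.5 (branch 14.2), with medians of 37.1 in tree 13, 37.3 in tree 14 and 29.2 in tree 4. The ranges of the 3 trees overlapped. The region from 113490 to 113929 (439 bp) had 17.5 to 32.1, with a median of 24.6, and lay in the sparse stretch. The region from 17524523 to 17525245 (722 bp) had 19.7 to 33.8, with a median of 22.3.

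The widest regions of the partners were unlike each other. On Chr08 the widest ran from 9729725 to 9731046 (1321 bp), was made of 29 peaks and had a mean −log10 q of 13.8 ± 3.08 and a mean score percentile of 91.8 (SD, n = 14). On Chr10 the widest ran from 14806257 to 14807924 (1667 bp) and was made of 30 peaks, with a mean −log10 q of 4.28 ± 0.769 and a mean score percentile of 32.7. Width and significance thus did not go together in these regions. Both were called in all 14 libraries.

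The last comparison asked whether the stems, or the individuals, differed in the balance between the partners. The ratio of Chr08 to Chr10 in peaks per Mb was 1.06, 1.04, 1.03, 1.05 and 1.12 in branches 13.1 to 13.5 of tree 13. In branches 14.1 to 14.5 of tree 14 it was 1.03, 1.08, 1.02, 1.06 and 1.02. In branches 4.2 to 4.5 of tree 4 it was 1.003, 0.999, 1.04 and 1.01. Tree 13 and tree 14 overlapped, and the difference between them was 0.027 on the log2 scale (0.086 ± 0.047 in tree 13 and 0.059 ± 0.037 in tree 14, exact permutation test, n = 5 each, p = 0.381, adjusted p = 0.508).

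Trees 13 and 14 together had a log2 ratio of 0.073 ± 0.042 (n = 10), against 0.018 ± 0.025 in tree 4 (n = 4). The difference of 0.055 was past the threshold (exact permutation test, p = 0.0120, adjusted p = 0.0288), although branch 4.4 lay within the range of trees 13 and 14. It did not hold over the alternatives. Without branch 4.2, 4.3 or 4.5 it was 0.050, 0.048 or 0.053, with adjusted p of 0.101, 0.0839 and 0.0839, in an overall range of 0.0155 to 0.176. With peaks of −log10 q of at least 10 it turned to -0.11 (exact permutation test, adjusted p = 0.0155), with 0.013 ± 0.055 in trees 13 and 14 and 0.12 ± 0.071 in tree 4. Branch 14.2 then stood lowest, at -0.13, and the 4 branches of tree 4 lay between 0.035 and 0.19. With any 1 library left out, the difference among strong peaks lay between -0.13 and -0.082. Of the 171 pairs of chromosomes, 5 had a larger absolute difference between the individuals than Chr08 with Chr10. In the dense stretches alone the mean log2 ratio was 0.027 in trees 13 and 14 and -0.013 in tree 4.

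**Figure D4:**
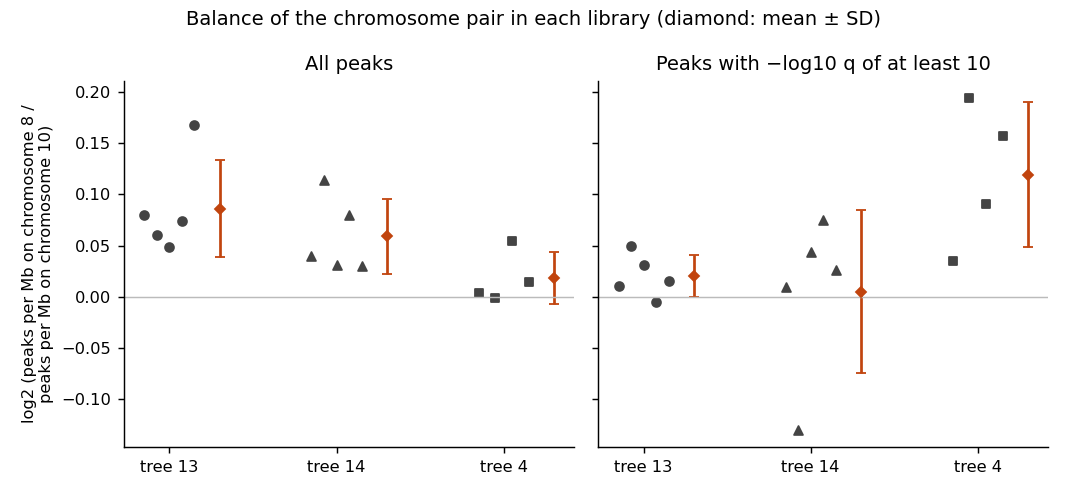
The log2 ratio of peaks per Mb on Chr08 to peaks per Mb on Chr10 in each branch of trees 13, 14 and 4, for whole lists and for peaks of −log10 q of at least 10, with diamonds and whiskers for the mean ± SD of a tree. Over whole lists the mean was 0.073 in trees 13 and 14 together and 0.018 in tree 4, and over strong peaks it was 0.013 and 0.12, so the order of the individuals turned round.

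The density of the pair relative to the other chromosomes did not pass the threshold between the trees over whole lists, but did so between the stems in 1 alternative. The log2 ratio was 0.37 ± 0.066 in tree 13 and 0.33 ± 0.017 in tree 14 (difference 0.040, exact permutation test, n = 5 each, p = 0.183, adjusted p = 0.313). With the most significant 50% of each list this difference was 0.052 and passed (exact permutation test, p = 0.0159, adjusted p = 0.0308, in a range of 0.0308 to 0.80 over 17 alternatives). It was 0.35 ± 0.050 in trees 13 and 14 together and 0.33 ± 0.028 in tree 4 (difference 0.019, exact permutation test, n = 10 and 4, p = 0.561, adjusted p = 0.612).

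The adjusted test of single regions made no call between the trees and had little power to make one. With groups of this size it would need 1436 all-or-none regions over all chromosomes between tree 13 and tree 14, where 13 were found. Between the individuals it would need 372, where 3 were found. Its counts of 0 thus reflect that so many all-or-none regions were absent. They do not show that single regions were alike between the trees. Of 1199 regions of the pair that could reach an unadjusted p under 0.05 between tree 13 and tree 14, 0 passed after Benjamini-Hochberg adjustment over all chromosomes (0% of all such regions, Fisher's exact test), and 28 passed unadjusted (2.34%), against 3.04% of all such regions. The count was not firm, being 46 to 142 with 1 library left out, highest without branch 13.2, and 1 among regions of strong peaks. The 28 were 14 on Chr08 (2.46% of such regions there) and 14 on Chr10 (2.22%). On the pair 3 were called more often in tree 13 (0.250%, against 0.21% of all such regions). The other 25 were called more often in tree 14 (2.09%, against 2.83% of all such regions). The pair had 80.7 ± 26.3 peaks per Mb in tree 13 and 93.7 ± 20.9 in tree 14 (n = 5 each), whose part in this split was not tested. Between trees 13 and 14 and tree 4, 0 of 2462 regions passed adjusted (0% of all) and 23 unadjusted (0.934%), against 0.994% of all such regions. Of the 23, 9 lay on Chr08 (0.755% of such regions there) and 14 on Chr10 (1.10%). On the pair 7 were called more often in trees 13 and 14 (0.284%, against 0.435% of all such regions). The other 16 were called more often in tree 4 (0.650%, against 0.559% of all such regions). The count of 23 became 9 to 44 with 1 library left out, highest without branch 4.3, and 5 among regions of strong peaks. All-or-none regions, which all branches of one side and 0 branches of the other call, numbered 0 on the pair in either comparison and direction (0.0111, 0.133, 0 and 0.0161% of all such regions).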

How the data were processed

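The authors deposited 1 peak list per library, so peaks were not called on pooled libraries. Besides start and end, the deposited values are a score, a −log10 q-value and a −log10 p-value per peak. The score was the whole part of 10 times −log10 q for 99.98% of the peaks on the pair, and the lowest −log10 q of a list was 2.00 to 2.05. The submitters' processing notes name Trimmomatic 0.36, Bowtie 1.1.1 and MACS2 2.1.2, without roles here. Not given in the sources used here are the genome build, any shift of reads for the transposase and whether starts count from 0 or 1. An uncalled region need not be closed.

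Groups follow the tree number of the titles. The library titled 1.1 entered no comparison, because its peak names give tree 4, branch 1. Libraries are separate branches. Differences within libraries were tested by two-sided exact sign-flip permutation over 14 libraries and differences between trees by two-sided exact permutation of libraries, with Benjamini-Hochberg adjustment over 12 tests. The smallest p was 0.000122 for 14 sign flips, 0.00794 for 5 against 5 and 0.00200 for 10 against 4. Single regions were compared by Fisher's exact test.

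Named regions were, per chromosome, the 3 of highest mean score percentile called in all 14 libraries, the widest, any all-or-none region, the densest and emptiest 1 Mb window and the longest stretch without a region. The members, lists and alternatives were chosen with earlier results of these data known.

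Region centres met 0.170 gene ends each in the RefSeq gene table and shifted centres 0.174, so the table was not taken as the build of the lists. No gene, promoter or sequence is given, and the planned promoter share was not run. Tests were checked on simulated data. The software was scipy 1.17.1, pandas 2.3.3, numpy 2.4.6 and matplotlib 3.10.9 under Python 3.11.15.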

Additional observations from a re-analysis of the deposited data

Results flagged for a closer look

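Dixon's test for a sample far from the rest was applied to 24 groups of branches, of which chance alone marks about 1 in 20, and 3 stood out. In tree 4, branch 4.3 had 1.60% of the pair covered by peaks, with the next branch at 2.40% (gap 0.908 of the range, critical value 0.829). In tree 13, branch 13.5 had a log2 ratio of Chr08 to Chr10 of 0.168, with the next at 0.0804 (gap 0.731, critical value 0.71). The same branch had a log2 ratio of the pair to the other chromosomes of 0.486, with the next at 0.362 (gap 0.805, critical value 0.71), and it had the shortest list, with 12801 peaks. Without it the difference between the individuals in the balance of Chr08 to Chr10 was 0.0441.

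The log2 ratio of Chr08 to Chr10 differed between trees 13 and 14 and tree 4 by 0.0546 (exact permutation test, n = 10 and 4, adjusted p = 0.0288), a difference between groups that turned round among strong peaks.

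The library titled 1.1, which entered no comparison, had 3687 peaks on the pair, 1758 on Chr08 and 1929 on Chr10. Of these 68 (1.84%) lay outside every region of the other 14 libraries, 29 on Chr08 and 39 on Chr10. Its density was 86.9 peaks per Mb on Chr08 and 85.0 on Chr10.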

How the results depend on the processing

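The 12 tested differences were recomputed 238 times: 211 kept direction and side of the threshold, 6 lost and 8 gained the call, and 13 turned round. Of 153 recomputed values without a test, 109 stayed within a set limit and 44 moved. The limit was the SD over libraries for densities, widths and profile correlations. It was counting error for the share called in all libraries and a fixed fold change for region calls. The density of Chr08 over Chr10 and the density and covered share of the pair over the others kept direction and call in all 20, 21 and 21 alternatives. The cause of the changes below was not tested. Read depth is unknown, so list length and depth cannot be told apart.

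With −log10 q of at least 10, Chr08 minus Chr10 was -0.0146 percentage points in covered share, -20.2 bp in peak width and -28.5 bp in region width. Pair minus others was -9.25 bp in peak width, -3.80 points in score percentile, 6.04 regions per Mb, -1.97 percentage points called in all 14 and -3 bp in region width. Trees 13 and 14 minus tree 4 was -0.107 for log2 Chr08/Chr10 and -0.0111 for log2 pair/others. Unadjusted region calls were 1 between tree 13 and tree 14 and 5 against tree 4.

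With the most significant 50% of each list, Chr08 minus Chr10 was 0.00258 percentage points in covered share, -7.39 bp in peak width, -0.457 points in score percentile and -3 bp in region width. Pair minus others was -0.429 bp in peak width, -1.71 points, 18.5 regions per Mb, 0.337 percentage points called in all 14 and 2 bp in region width. Tree 13 minus tree 14 was -0.000474 for log2 Chr08/Chr10 and 0.0524 for log2 pair/others, which then passed the threshold (exact permutation test, adjusted p = 0.0308), and trees 13 and 14 minus tree 4 was -0.00466 for log2 pair/others.

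With lists of equal length, Chr08 minus Chr10 was 0.00643 percentage points in covered share, -6.07 bp in peak width and -0.348 points in score percentile. Pair minus others was -1.39 bp, -1.13 points, 17.4 regions per Mb and 0.265 percentage points called in all 14. Trees 13 and 14 minus tree 4 was 0.0344 for log2 Chr08/Chr10 and -0.00210 for log2 pair/others. Without the outer 5% of each chromosome, pair minus others was 2.07 bp in peak width. With a 50% overlap for a call, it was 0.103 percentage points called in all 14, and 37 regions differed from tree 4 unadjusted. The profile correlation was 0.979 over 10 bins, 0.909 over 40, -0.619 without turning and 0.838 for regions of all 14 libraries, and in windows from the dense ends 0.892 at 500 kb and 0.954 at 2 Mb.

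With each library left out, Chr08 minus Chr10 ranged from 2.96 to 3.47 peaks per Mb, 0.0467 to 0.0574 percentage points covered, -1.31 to -0.0769 bp, -0.0216 (without 14.5; -0.00247 without 14.1) to 0.277 points in percentile, 2.52 to 4.86 regions per Mb, -0.205 to 1.0001 percentage points called in all remaining libraries and -1 to 5 bp in region width. Pair minus others ranged from 17.5 to 18.4 peaks per Mb, 0.448 to 0.473 percentage points covered, 0.846 to 1.31 bp, -0.470 to -0.196 points, 30.2 to 31.3 regions per Mb, 1.37 to 2.39 percentage points called in all and 1 to 5 bp in region width. For log2 Chr08/Chr10 it was 0.00689 to 0.0409 between tree 13 and tree 14 and 0.0441 to 0.0669 against tree 4. For log2 pair/others it was 0.0109 to 0.0495 and 0.00365 to 0.0324. Among strong peaks, an alternative chosen after seeing the data, leaving out each library gave -21.3 to -17.8 bp in peak width for Chr08 minus Chr10 and -1.5 (without 13.5) to 2.88 bp for Chr10 minus others. Unadjusted region calls ranged from 46 (without 14.1) to 142 (without 13.2) between tree 13 and tree 14 and from 9 (without 13.1) to 44 (without 4.3) against tree 4. Leaving out a library changes the group sizes and so which patterns of calls can reach the threshold.

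With branch number as a replicate block, tree 13 minus tree 14 was 0.0272 for log2 Chr08/Chr10 (exact permutation test, 5 pairs, p = 0.5625, adjusted p = 0.614) and 0.0400 for log2 pair/others (exact permutation test, p = 0.1875, adjusted p = 0.321). Deviations of same-numbered branches correlated from -0.0998 to 0.132, with 1 of 5 pairs over 0.1. These 5 values do not decide whether same-numbered branches share more than a number.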

Other observations

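Libraries shared slightly more of their calls on the pair than on most chromosomes. Of the regions called in either of a pair of libraries, the share called in both was 0.599 ± 0.0683 on Chr08 and 0.595 ± 0.0764 on Chr10, against 0.583 ± 0.0805 on the other chromosomes (SD over 91 pairs of libraries, which are not independent). Chr08 took place 3 and Chr10 place 6 of the 19 chromosomes. Stretches of more than 100 kb without a region numbered 8 on Chr08 and 10 on Chr10, with 2.07 Mb and 3.19 Mb in all. Single other chromosomes had 2 to 39 such stretches.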
